A study of Homo sapiens
Mus musculus with 5 samples.

Results

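The 9 genes described here mark the oligodendrocyte lineage of the mouse host. They are Pdgfra, Olig2, Sox10, Bcas1 and Tnr, taken as genes of progenitors or of the whole lineage, and Mbp, Mobp, Mog and Mag, taken as genes of mature myelin. They were picked by gene symbol out of 24628 genes in the mouse table, and each symbol matched 1 gene. The tumors grew from H2030-BrM3 cells, a brain-seeking derivative of a human lung adenocarcinoma line. The hosts were athymic nu/nu mice, a strain without a thymus or mature T cells. Brain tumors gave 3 RNA sequencing libraries, and lung tumors gave 2, after 100000 cells per animal had been placed in the trachea. All 5 libraries hold RNA of the human tumor and of the mouse tissue around it, and the labels give neither the seeding route of the brain tumors nor the age of the mice. The labels also do not say that each library came from its own animal, so a p-value here covers the spread among libraries, which may be technical. No tumor-free brain was among the samples, and all values below are therefore levels in tumor-bearing tissue.

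Oligodendrocytes wrap axons of the brain and spinal cord in myelin, a stack of membranes rich in lipid and a few abundant proteins. They arise from progenitors that spread through the whole adult brain, divide, and depend on platelet-derived growth factor. On differentiation these cells shut down progenitor genes, pass through a short premyelinating stage, and then make large amounts of myelin messenger RNA. The lung has no oligodendrocytes, since myelin of peripheral nerves is made by Schwann cells, and its libraries serve here as background.

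Values are RPKM, read counts scaled by gene length and by the library's reads of the same species. The number of mouse reads behind them, recovered as the smallest whole numbers that give the deposited values, was 2710983 to 8636094 in the brain tumors, against 231156 in lung tumor 1 and 5295159 in lung tumor 2. Mouse reads were 24.4%, 43.5% and 77.9% of all reads in brain tumors 1, 2 and 3, against 3.41% and 58.6% in lung tumors 1 and 2. Lung tumor 1 thus stands apart in depth, and 11897 mouse genes were listed at 0 there, against 4919 in lung tumor 2. Marker genes went with the tissue labels. All 14 neuron genes and all 12 astrocyte genes of the lists used rose in the brain tumors, against 14.3% of 15431 tested mouse genes. Of 10 tested lung epithelium genes 7 fell, against 8.12% of tested genes. The lists were chosen with earlier results of these data known, so these counts are a description. Recovered reads and RPKM imply a gene length, which was 518 to 2971 bases for 8 of the genes and 166 bases for Olig2. Of 18330 mouse genes above 0 in 3 or more libraries, 0.496% had a shorter one. Recovered reads of a gene can fall short of the true number by a common factor, and the implied length then falls short likewise. Those of Olig2 are therefore least numbers, and the authors may have used a length above 166 bases. Levels of different genes are compared only roughly.

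Among the progenitor genes, Tnr had the highest mean level in the brain tumors, although Bcas1 was above it in brain tumor 1. It encodes tenascin-R, a matrix glycoprotein of the brain that is made by progenitors, by oligodendrocytes and by some neurons. Tnr (ENSMUSG00000015829.13) had 175, 298 and 204 RPKM in brain tumors 1, 2 and 3, against 5.04 and 1.33 RPKM in lung tumors 1 and 2. The lung values rested on 1 and 6 reads, and every brain tumor lay far above both. Bcas1, a marker of newly formed, premyelinating oligodendrocytes that mature cells keep at a lower level, came next. Bcas1 (ENSMUSG00000013523.13) had 237, 132.3 and 151 RPKM in brain tumors 1, 2 and 3, against 0 and 4.74 RPKM in lung tumors 1 and 2. Brain tumor 1 was the highest library for Bcas1 and the lowest for Tnr.

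Pdgfra encodes the receptor for platelet-derived growth factor A, the main mitogen of oligodendrocyte progenitors, and is also made by many fibroblasts. Pdgfra (ENSMUSG00000029231.15) had 97.4, 112 and 58.9 RPKM in brain tumors 1, 2 and 3, against 159 and 359 RPKM in lung tumors 1 and 2. It was the 1 gene of the 9 with every brain tumor below both lung tumors. Sox10 and Olig2 encode transcription factors that the lineage carries from progenitor to myelinating cell. Sox10 (ENSMUSG00000033006.9) had 23.65, 20.7 and 9.94 RPKM in the brain tumors, against 0 and 0.136 RPKM in the lung tumors, where it had 0 and 1 reads. Olig2 (ENSMUSG00000039830.8) had 17.75, 17.15 and 11.9 RPKM in brain tumors 1, 2 and 3, while both lung tumors listed it at 0. It rested on at least 8, 14 and 17 reads in brain tumors 1, 2 and 3, the fewest recovered for the 9 genes. If these are the full numbers, the limit that a count of 0 allows, 3 reads, was 78.2 RPKM in lung tumor 1 and 3.41 RPKM in lung tumor 2. A brain-like Olig2 level would then not have been detectable in lung tumor 1.

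Mbp and Mobp had the highest levels of the 9 genes. Mbp encodes myelin basic protein, which binds the inner faces of the myelin membrane together, and its locus also gives golli transcripts in immune and other cells. Mbp (ENSMUSG00000041607.16) had 2526, 1171 and 1706 RPKM in brain tumors 1, 2 and 3, against 26.6 and 29.4 RPKM in lung tumors 1 and 2. It ranked 16th, 46th and 30th of 24628 mouse genes in the brain tumors, and its lung level, on 13 and 327 reads, was the highest background of the 4 mature genes. Mobp, an abundant small protein of central myelin, followed. Mobp (ENSMUSG00000032517.15) had 778, 389 and 462 RPKM in the brain tumors, against 2.90 and 0.509 RPKM in the lung tumors. Mag encodes a sialic acid binding protein of the membrane that faces the axon. Mag (ENSMUSG00000036634.15) had 147, 73.2 and 100.1 RPKM in the brain tumors, against 0 and 1.93 RPKM in the lung tumors. Mog encodes a glycoprotein on the outermost myelin surface that appears late in maturation. Mog (ENSMUSG00000076439.12) had 70.5, 34.5 and 35.3 RPKM in the brain tumors, against 3.62 and 0 RPKM in the lung tumors. The lung value of 3.62 RPKM was 1 read. For all 4 genes brain tumor 1 was the highest and brain tumor 2 the lowest brain library, although for Mog brain tumors 2 and 3 were nearly equal.

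**Figure D1:**
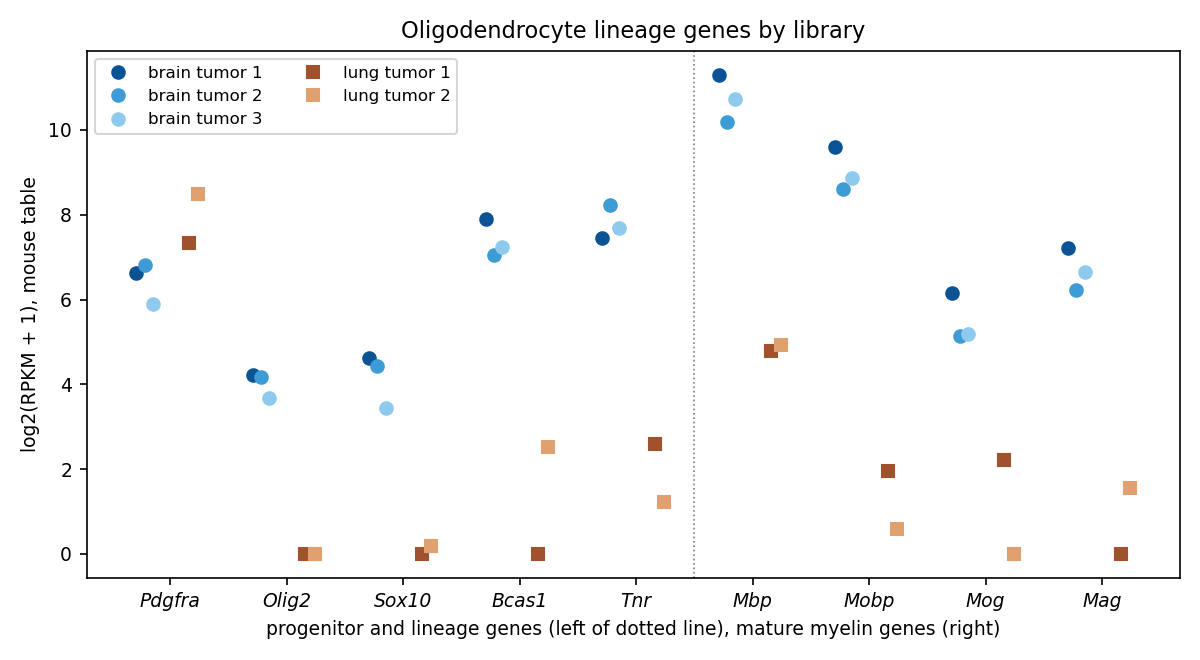
Level of each gene on the log2(RPKM + 1) scale in the 3 brain tumors (circles, left of each gene) and the 2 lung tumors (squares, right of each gene), with 1 point per library. Circles lie above squares for 8 genes, and for Pdgfra the squares at 159 and 359 RPKM lie above the circles.

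Averaged over the 3 brain tumors the order was Mbp at 1801 ± 682.5 RPKM (mean ± SD, n = 3 here and in this paragraph), Mobp at 543 ± 207, Tnr at 225 ± 64.2, Bcas1 at 174 ± 56.1, Mag at 107 ± 37.1, Pdgfra at 89.3 ± 27.3, Mog at 46.8 ± 20.6, Sox10 at 18.1 ± 7.21 and Olig2 at 15.6 ± 3.24. The ranges of Mbp, Mobp and Tnr did not overlap with one another. From Tnr down to Mog each gene's range overlapped that of its neighbour in the order, and so did the ranges of Sox10 and Olig2, which lay below that of Mog. Mature genes thus stood both at the top and in the middle of the order, with Mog below 3 of the 5 progenitor genes.

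The comparison of brain with lung tumors asks how far each gene stands above the level of tissue without oligodendrocytes. Of the 9 genes 8 rose in the brain tumors by limma at an adjusted p under 0.05, where 14.3% of 15431 tested mouse genes did, and 0 fell, against 8.12%. For the same 8 genes every brain tumor lay above both lung tumors, as for 30% of tested genes. A gene was tested if it had 1 RPKM or more in 2 libraries, and 6 of the 9 met this only through the brain tumors. For these 6 genes a difference was built into the filter, so the count is a description. The same held for 10 of the 14 neuron and 3 of the 12 astrocyte genes counted above. In the other direction, Sftpa1 and Aqp5 of the lung epithelium genes that fell met the filter only with the help of the lung tumors. Among the 3 genes with 1 RPKM or more in both lung tumors, Mbp rose by 5.89 on the log2 scale (SE 0.41, adjusted p = 0.00115 by limma). Tnr rose by 5.88 (SE 0.50, adjusted p = 0.00176 by limma). For Pdgfra the value was -1.46 (SE 0.48, limma adjusted p = 0.0783), which did not pass. Median log2 fold change of all tested genes was 0.08, so these values are hardly moved by a general shift.

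Of the other 6 genes Mobp had the largest log2 fold change, 7.745 (SE 0.53). Bcas1 had 6.14, Mag 5.92, Mog 4.39, Sox10 4.08 and Olig2 4.03, likewise as a description. For Olig2, at 0 in both lung tumors, a fitted fold change depends on the added constant. Set against a floor of 3 reads over both lung libraries, its brain mean was at least 4.77-fold higher, and more recovered reads would only lower that floor. Olig2 did not pass with voom on recovered reads, which are least numbers for this gene (adjusted p = 0.105), where 13.8% of genes were called higher. Mog did not pass when a brain tumor was left out, with limma adjusted p of 0.0577 without brain tumor 1, 0.056 without brain tumor 2 and 0.0628 without brain tumor 3. In those fits 7.26%, 6.56% and 6.8% of genes were called higher.

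Pdgfra was the gene for which lung was no background. Its mean was 89.3 ± 27.3 RPKM in the brain tumors (SD, n = 3), against 259 ± 141 RPKM in lung tumors (SD, n = 2). It fell in the brain tumors without lung tumor 1 (log2 fold change -2.05, limma adjusted p = 0.0238) and with voom on recovered reads (-1.59, adjusted p = 0.0387), where 13.7% and 13.6% of genes were called lower. Of 15431 tested genes 26.2% lay below both lung tumors in every brain tumor. Most fibroblast and mural cell genes were also lower in the brain tumors. Of 11 tested genes of that list 7 fell and 0 rose, where 8.12% of all tested genes fell and 14.3% rose. Inmt, a gene of the list that fell, met the filter only with the help of the lung tumors, so for it the fall is a description. The summed level of 12 genes of the list was 207 to 961 RPKM in the brain tumors, against 11875 to 17262 RPKM in the lung tumors. Its abundant members Col1a1 and Col3a1, which encode fibrillar collagens, had 176 and 74.2 RPKM in the brain tumors on average, against 7400 and 3804 RPKM in the lung tumors. Rgs5, a gene of pericytes, did not share this, with 176, 144 and 82.8 RPKM in brain tumors 1, 2 and 3, against 255 and 17.7 RPKM in lung tumors 1 and 2 (limma adjusted p = 0.576). Tcf21, a transcription factor of lung fibroblasts, was listed at 0 in all 3 brain tumors and in lung tumor 1, and at 77.25 RPKM in lung tumor 2; it was named for this after its values were seen. The part of fibroblasts in the Pdgfra level was not tested. In such bulk tissue, fewer cells of a type and less RNA per cell cannot be told apart.

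Schwann cells, the other myelin-forming cell, were checked because they share Mbp and Mag with oligodendrocytes. Of 7 tested genes of the Schwann cell list 2 rose, 2 fell and 3 did not pass, where 14.3% of all tested genes rose and 8.12% fell. Pmp22, a peripheral myelin gene that many other tissues use, fell, with 108 ± 21.9 RPKM in the brain tumors (SD, n = 3), against 554 RPKM on average in lung tumors (log2 fold change -2.35, limma adjusted p = 0.00619). Egr2, a regulator of Schwann cell myelination that macrophages also use, fell too, with a mean of 2.91 RPKM in brain tumors, against 25.3 RPKM in lung tumors. Drp2 and Mlip rose, with means of 20.35 and 11.1 RPKM in brain tumors, against 0.0967 and 0.452 RPKM in lung tumors, and met the filter only through the brain tumors. The summed level of 9 genes was 124 to 170 RPKM in the brain tumors, against 496 and 767 RPKM in lung tumors 1 and 2.

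Within the brain tumors the 4 mature genes had 1 order of libraries, and the progenitor genes had several. Brain tumor 1 over brain tumor 2 gave a ratio of 2.16 for Mbp (95% interval 2.11 to 2.21), 2.00 for Mobp (1.93 to 2.08), 2.04 for Mog (1.68 to 2.48) and 2.00 for Mag (1.80 to 2.22). These intervals are exact binomial and cover counting error of the recovered reads only. All 4 ratios exceeded the 95th percentile, 1.702, of the same ratio over 10923 tested mouse genes that were above 0 in every brain tumor with a mean of 5 RPKM or more there, whose median was 1.03. The order of brain tumor 1 above 3 above 2 held for 4 of 4 mature genes and for 11.9% of the 10923 genes. Each brain tumor is 1 library, so these ratios compare libraries and not conditions.

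Of the progenitor genes Bcas1 alone shared that order. Its ratio of brain tumor 1 over brain tumor 2 was 1.79 (95% interval 1.54 to 2.09). Tnr ran the other way, at 0.588 (0.524 to 0.658), and Pdgfra was at 0.873 (0.776 to 0.982). Sox10 was at 1.14 (0.866 to 1.501), and Olig2 at 1.035 (0.376 to 2.64), with intervals that include 1. Brain tumor 3 separated the genes in another way. Brain tumor 2 over brain tumor 3 gave 1.895 for Pdgfra (1.72 to 2.09), 2.08 for Sox10 (1.62 to 2.68) and 1.46 for Tnr (1.35 to 1.58). The same ratio was 0.686 for Mbp (0.672 to 0.701), 0.731 for Mag (0.669 to 0.799) and 0.841 for Mobp (0.814 to 0.868). Bcas1 was on the side of these mature genes, at 0.8755 (0.766 to 0.9992). Olig2 was at 1.446 (0.66 to 3.118), with an interval that includes 1. Of the 10923 genes 55.9% were higher in brain tumor 2 than in brain tumor 3, and 44.1% were lower. Mog, at 0.977 (0.819 to 1.16), showed no difference detectable at this depth. Pdgfra, Sox10 and Olig2 were lowest in brain tumor 3, as were 45% of the 10923 genes. The coefficient of variation over the 3 brain tumors ran from 20.8% for Olig2 to 44.0% for Mog, against a median of 18.9% and a 90th percentile of 45.3% over the 10923 genes.

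**Figure D2:**
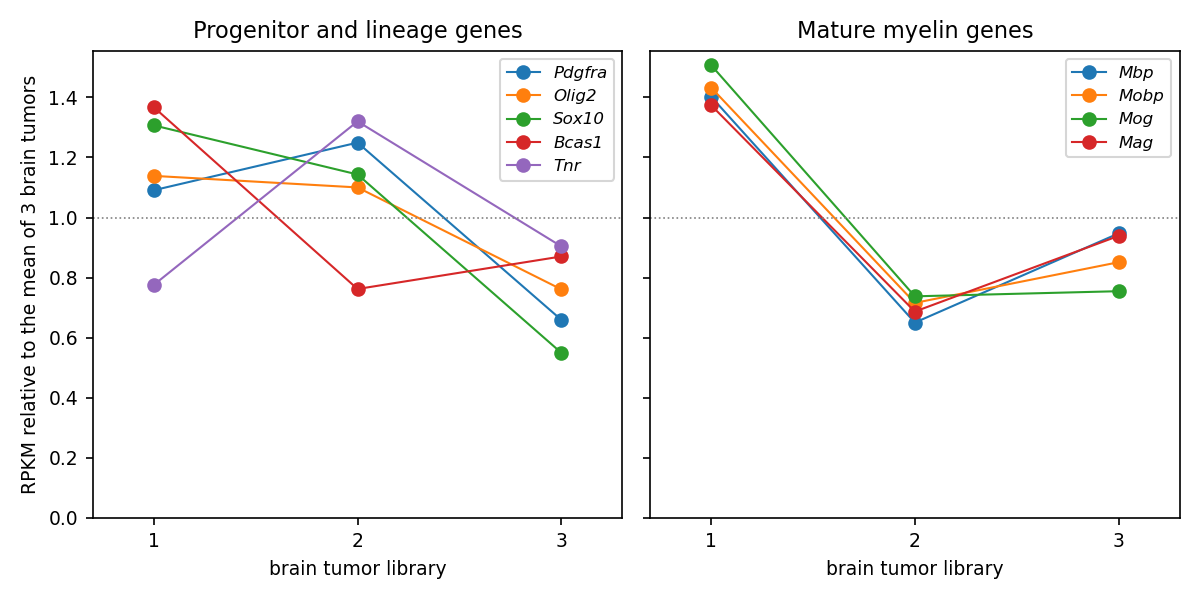
RPKM of each gene in the 3 brain tumors divided by its mean over them, for 5 progenitor and lineage genes (left panel) and 4 mature myelin genes (right panel). Lines only join the values of a gene and show no trend, since the libraries have no order. The 4 mature genes are all highest in brain tumor 1, while Tnr and Pdgfra are highest in brain tumor 2.

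The balance of progenitor to mature genes therefore differed between the brain tumors. Summed RPKM of the 5 progenitor genes was 551, 579 and 436 in brain tumors 1, 2 and 3. Summed RPKM of the 4 mature genes was 3521, 1667 and 2304 in the same libraries. The progenitor sum hides changes of single genes, since Tnr and Bcas1, its largest parts, ran in opposite directions between brain tumors 1 and 2. The highest over the lowest brain tumor was 1.496 for Olig2, 1.702 for Tnr, 1.794 for Bcas1, 1.895 for Pdgfra and 2.378 for Sox10. For the mature genes it was 2.001 to 2.157. Mean RPKM of the progenitor genes over that of the mature genes gave a log2 ratio of -3.00, -1.85 and -2.725 in brain tumors 1, 2 and 3, or -2.52 ± 0.60 (SD, n = 3). In plain terms the average mature gene was 7.99, 3.60 and 6.61 times as high as the average progenitor gene. The ratio of the 5 progenitor to the 4 mature genes was thus highest in brain tumor 2. Summed mature genes were also lowest in brain tumor 2 relative to neuron, astrocyte, microglia and macrophage, and endothelial genes, as given below. A high ratio there is therefore not particular to the progenitor genes. Of the 20 ratios of 1 progenitor gene over 1 mature gene, 19 were highest in brain tumor 2, and the exception was Bcas1 over Mog, highest in brain tumor 3. These ratios share genes and are not independent of one another. All 4 mature genes were lowest in brain tumor 2, so the count follows in large part from their level there and is a description. The ratio over all members stayed highest in brain tumor 2 with medians in place of means and with means of log2 values. It also did without Mbp, without Pdgfra, without Olig2 and Sox10, and under quantile scaling. Leaving out Tnr or Bcas1 was not tried. The size of the ratio rested on Mbp, and without it the values were -1.59, -0.51 and -1.19 in brain tumors 1, 2 and 3. In the lung tumors the same ratio was 1.99 and 3.20, and Pdgfra made up nearly all of the progenitor sum of 164 and 365 RPKM there. With Pdgfra left out, the mean of log2(RPKM + 1) over the other 4 progenitor genes was 0.81 ± 0.24 in the lung tumors (SD, n = 2).

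**Figure D3:**
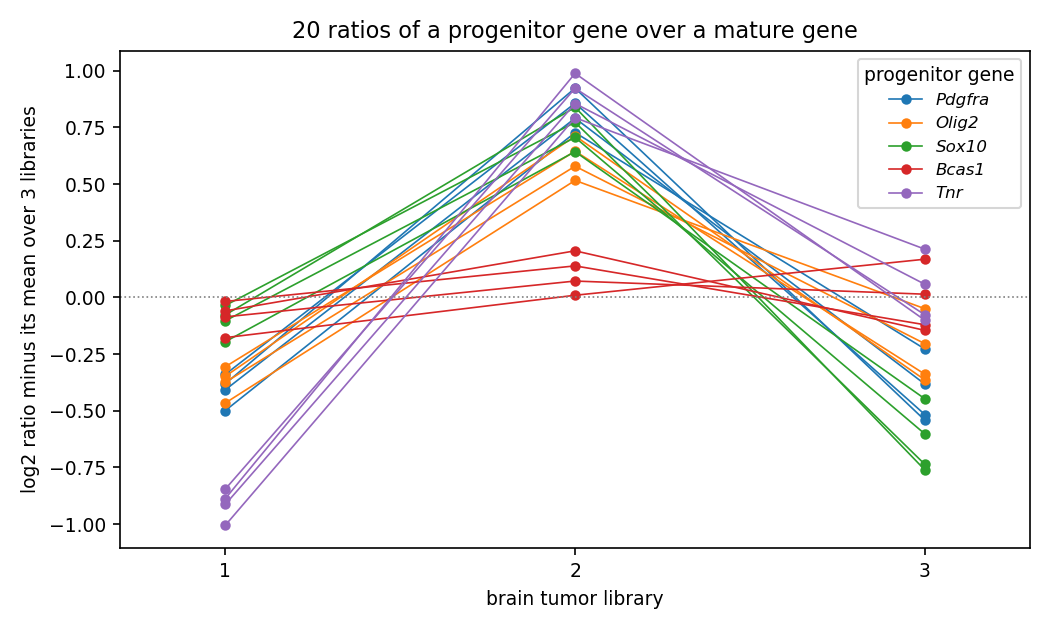
The 20 log2 ratios of a progenitor gene (colour) over a mature gene in each brain tumor, each shown relative to its own mean over the 3 libraries. All but 1 of the 20 are highest in brain tumor 2, where all 4 mature genes are lowest. Ratios with Tnr spread most and ratios with Bcas1 least.

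Other genes of the lineage were taken from 3 lists. Of 15 further progenitor genes 10 rose in the brain tumors, 0 fell and 5 did not pass, where 14.3% of all tested genes rose and 8.12% fell. The list had a median log2 fold change of 2.85, against 0.08 over all tested genes. Bcan, a proteoglycan of the brain matrix that astrocytes share, had 305, 331 and 299.5 RPKM in brain tumors 1, 2 and 3, against 8.26 and 0.362 RPKM in the lung tumors. Ptprz1, a receptor phosphatase of progenitors and astrocytes, had 115.5, 121 and 113 RPKM, against 0 and 2.215 RPKM. Olig1, the partner of Olig2, had 76.2, 65.4 and 47.5 RPKM in the brain tumors, against 1.95 and 0.0855 RPKM in the lung tumors. Cspg5, a proteoglycan of glia and neurons, had 63.2, 73.75 and 43.4 RPKM, against 0 and 0.342 RPKM. Each of the 4 passed the test. All 10 genes of the list that rose had 1 RPKM or more in fewer than 2 lung tumors and so met the filter only with the help of the brain tumors, which makes this count a description too. Without brain tumor 2 the list had 6 genes that rose. Of this list 11 genes had a mean of 5 RPKM or more in the brain tumors. All 11 were lowest in brain tumor 3, against 45% of the 10923 genes, and 7 were highest in brain tumor 2, against 28.1%. At the same level, 10 of 10 microglia and macrophage genes and 7 of 8 endothelial genes were also lowest in brain tumor 3.

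Of 12 genes of differentiating cells 4 rose, 0 fell and 8 did not pass, where 14.3% of all tested genes rose and 8.12% fell. The list had a median log2 fold change of 1.06. The number that rose was 2 without brain tumor 1, 2 without brain tumor 2 and 7 without lung tumor 2. Of the 4 that rose, 3 met the filter only with the help of the brain tumors, and Fyn met it in the lung tumors as well. The most abundant of them are also used outside the lineage. Sirt2, a deacetylase enriched in oligodendrocytes, had 159 ± 23.3 RPKM in the brain tumors (SD, n = 3), against 86.3 RPKM on average in lung tumors, and did not pass (limma adjusted p = 0.08015). Fyn, a kinase that acts early in myelination, rose, with 60.85 ± 4.13 RPKM in brain tumors (SD, n = 3), against 25.8 RPKM in lung tumors on average (log2 fold change 1.24, limma adjusted p = 0.043). Itpr2, a calcium channel of early differentiating cells, averaged 39.1 RPKM in brain tumors, against 32.05 RPKM in lung tumors, and Myrf, the transcription factor that turns on myelin genes, averaged 34.5 RPKM in brain tumors, against 22.0 RPKM in lung tumors. Neither passed (limma adjusted p = 0.509 for Itpr2 and 0.330 for Myrf).

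Of 30 further myelin genes 18 rose, 1 fell and 11 did not pass, where 14.3% of all tested genes rose and 8.12% fell. The list had a median log2 fold change of 3.11. Of the 18 that rose, 13 met the filter only with the help of the brain tumors. Among the 15 genes with 1 RPKM or more in both lung tumors 5 rose, against 7.99% of 11586 such mouse genes. Apod, a lipid carrier of glia, had 3285, 3043 and 3660 RPKM in brain tumors 1, 2 and 3, against 54.15 and 22.4 RPKM in lung tumors 1 and 2. Plekhb1, a membrane protein gene, had 452, 258 and 328.5 RPKM, against 9.22 and 67.7 RPKM. Cnp, an enzyme of the oligodendrocyte cytoplasm, had 299, 170.1 and 210 RPKM, against 21.2 and 23.8 RPKM. These genes rose, and Plekhb1 and Cnp had the library order of the 4 mature genes while Apod did not. Gsn, an actin-severing protein that fibroblasts and muscle use as well, was the gene that fell, with 159 ± 10.9 RPKM in the brain tumors (SD, n = 3), against 1925 RPKM on average in the lung tumors. Without brain tumor 1, 2 or 3 in turn, 0 genes of this list fell, and without lung tumor 1 or 2 the number was 2. Gsn was named after its values were seen. Among the 29 genes of this list with 5 RPKM or more in the brain tumors, 29 were higher in brain tumor 1 than in brain tumor 2, against 55.2% of the 10923 genes, and the median log2 ratio was 0.75. In 27 of them brain tumor 1 was the highest library, against 39.7% of the 10923 genes, and the order of brain tumor 1 above 3 above 2 held for 15.

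Markers of other cells differed between the brain tumors as well. Of genes with 5 RPKM or more, brain tumor 1 was the highest library for 9 of 12 astrocyte, 9 of 10 microglia and macrophage, 8 of 8 endothelial, 7 of 7 fibroblast and mural, and 2 of 14 neuron genes. The summed level of the neuron list was 3280, 4641 and 4862 RPKM in brain tumors 1, 2 and 3, against 110 and 75.9 RPKM in the lung tumors. That of the astrocyte list was 17602, 16822 and 15375 RPKM in the brain tumors, against 335 and 231 RPKM in the lung tumors. Microglia and macrophage genes summed to 991, 905 and 290 RPKM in the brain tumors, and endothelial genes to 455, 374 and 279 RPKM. Summed mature members over summed neuron genes gave 1.07, 0.359 and 0.474 in brain tumors 1, 2 and 3, and over astrocyte genes 0.2001, 0.0991 and 0.1499. Over microglia and macrophage genes they gave 3.553, 1.843 and 7.96, and over endothelial genes 7.736, 4.464 and 8.246. Summed progenitor members over astrocyte genes gave 0.0313, 0.0344 and 0.0283, and over neuron genes 0.168, 0.1248 and 0.0896. The other 30 myelin genes over astrocyte genes gave 0.4187, 0.3227 and 0.4197. Of their sum of 7370, 5429 and 6453 RPKM in brain tumors 1, 2 and 3, Apod alone had 3285, 3043 and 3660 RPKM. Relative to neuron and astrocyte genes the mature members were highest in brain tumor 1. Relative to microglia and macrophage genes, and to endothelial genes, they were highest in brain tumor 3. Against each of these lists the mature members were lowest in brain tumor 2. The order of the progenitor members also depended on the cell type they were set against. The wider myelin list, with Apod in its sum, was nearly equal in brain tumors 1 and 3 relative to astrocyte genes. Apod was highest in brain tumor 3, and the ratio without it was not computed. The share of mouse RNA differed too, as given above. The part of these cell types, and of the region and amount of brain tissue taken, in the order of the brain tumors was not tested.

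**Figure D4:**
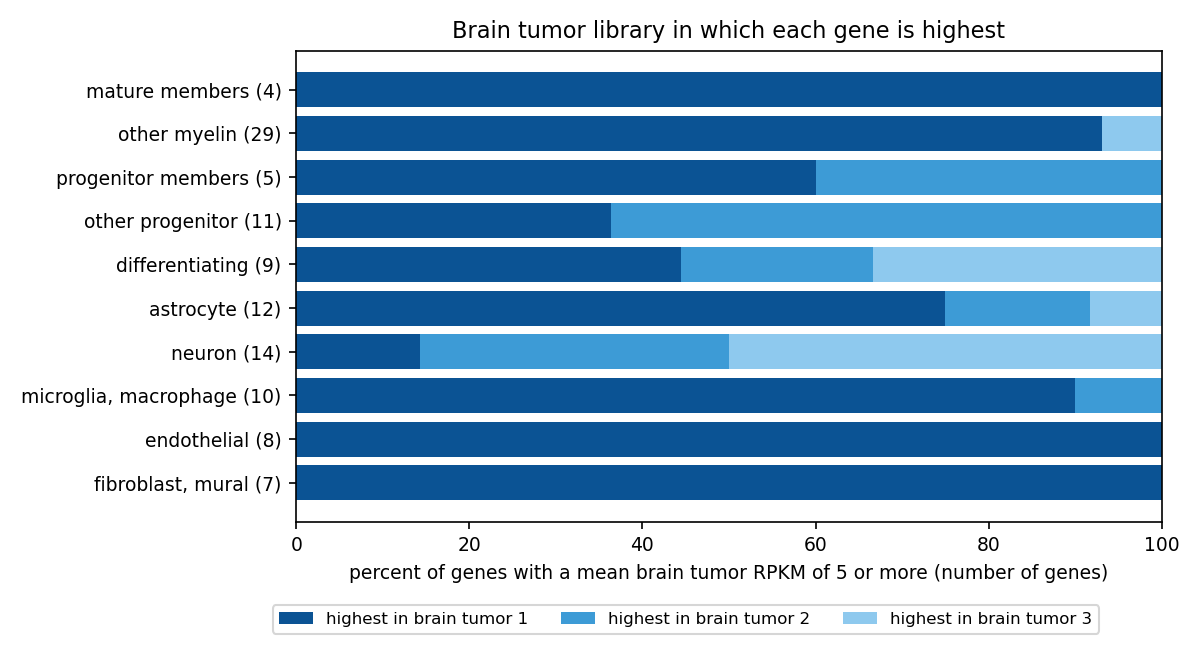
Percent of genes of each list that were highest in brain tumor 1, 2 or 3 (dark to light bars), among genes with a mean of 5 RPKM or more in the brain tumors, with their number in brackets. The 4 mature members and 27 of 29 other myelin genes are highest in brain tumor 1, against 4 of 11 other progenitor genes and 2 of 14 neuron genes. So are 9 of 12 astrocyte, 9 of 10 microglia and macrophage, 8 of 8 endothelial, and 7 of 7 fibroblast and mural genes. The share over 10923 mouse genes is 39.7%.

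A search over the 3 brain tumors looked for the genes most like each set. Likeness was the Euclidean distance between profiles of log2(RPKM + 1), each centred on its own mean, over all 10922 genes other than the members with a mean of 5 RPKM or more in the brain tumors. Among the nearest to the mean profile of the mature genes, where the median gene was at a distance of 0.809, was Mcam, an adhesion protein of vessel walls. Mcam was at 0.0352 and was lower in brain tumors, at 29.5 to 59.45 RPKM, than in lung tumors, at 207 and 286 RPKM. Next came Tmem130 at 0.0581, Kcnj16 at 0.0699 and Nsdhl, an enzyme of cholesterol synthesis, at 0.0735. Nearest to the progenitor genes were Rpl37a at 0.00461, Sema4d at 0.00853, Itga4 at 0.00991, Lin37 at 0.0105 and Slc7a2 at 0.011, where the median gene was at 0.530. Sema4d encodes a semaphorin, and Rpl37a a ribosomal protein. A profile over 3 libraries is short, and the distances are given as a description.

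In the human table, read as the cancer cells, 6 of the 9 genes were analysed. SOX10, MOG and MAG were not among them, so nothing is said here of their human reads. OLIG2, BCAS1, TNR and MOBP had at most 0.482 RPKM in any library, and PDGFRA had 0.272 to 0.835 RPKM. MBP was the exception. It had 169, 178 and 120.3 RPKM in brain tumors 1, 2 and 3, against 78.4 and 234 RPKM in lung tumors 1 and 2, so the groups overlapped. These values came from 851, 682 and 175 human reads in brain tumors 1, 2 and 3, against 305 and 522 in lung tumors 1 and 2. Of all reads given to MBP or Mbp, the human gene took 5.57%, 5.33% and 0.561% in brain tumors 1, 2 and 3, against 95.9% and 61.5% in lung tumors 1 and 2. How reads were assigned to a species is not given in the sources used here, and the part of misassigned human reads in the lung level of mouse Mbp was not tested.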

How the data were processed

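The deposited tables give RPKM computed by the authors, 1 for mouse and 1 for human genes. Per the submitters' processing notes the builds were mm10 (GRCm38) and hg38 (GRCh38); for aligner, counter, gene lengths and species rule the sources used here give nothing. Library numbers in the labels tied each column to its sample, with 0 columns unmapped. Whole reads were recovered from ratios of RPKM between libraries (24628 of 24628 mouse genes within 1e-06 of a whole number). They are the smallest numbers that fit, so a factor common to all libraries is not seen, and for 3995 mouse genes above 0 in 1 library the number is undetermined and was set to 1; totals are therefore lower bounds. Intervals from them (95%) cover counting error only. The floor for a count of 0 was 3 reads.

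Genes with 1 RPKM or more in 2 libraries (15431) were fitted as log2(RPKM + 1) with limma 3.58.1 in R 4.3.3, brain minus lung, with eBayes and an intensity trend, which was tested on simulated data. P-values are for both directions with Benjamini-Hochberg adjustment over all tested genes. Fold changes understate the change of low genes. An exact permutation of 3 against 2 libraries cannot go below p = 0.2 and was not used. The members and the lists were chosen with earlier results of these data known. Named genes were the 9 members, the 4 most abundant of each list and the 5 nearest profiles per set; other list genes are said to be picked after their values were seen. Some genes that this rule names are not reported here. Lists of lung epithelium, endothelium, microglia and macrophages, fibroblasts and mural cells, Schwann cells, astrocytes and neurons were counted in the same fit. Alternatives were other pseudocounts, filters, scalings and eBayes settings, voom on recovered reads, a replicate block and leaving out each library.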

Additional observations from a re-analysis of the deposited data

How the results depend on the processing

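Over 15 alternatives for each of the 9 genes, giving 135 fits, 129 kept direction and side of the threshold, 4 lost a call (Olig2 and Mog, given above), 2 gained one (Pdgfra) and 0 reversed. Log2 fold changes ran from 5.61 to 6.17 for Mbp, 7.06 to 9.45 for Mobp, 5.19 to 6.81 for Tnr and -2.05 to -0.88 for Pdgfra. Genes called lower among the 9 numbered 1 (Pdgfra) with voom and 0 to 1 when libraries were left out. Over all mouse genes, 2204 were higher and 1253 lower. Leaving out a library, which means fewer samples, gave 1012 to 5135 higher and 183 to 3140 lower; where 1 lung tumor was left, it was assumed to vary like the brain tumors. Lower calls were 679 with no filter, where more genes were tested, and 2100 with voom, for which the cause was not tested. Of the calls, 63.8% were higher as reported, 50.4% with voom, 54% with quantile scaling and 69% with median-ratio scaling. The median log2 fold change of all genes was 0.22 with median-ratio scaling, -0.11 with quantile scaling and -0.16 with voom.

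The progenitor over mature log2 ratio averaged -1.85 with medians, -1.10 without Mbp and -1.88 without Olig2 and Sox10, which follows from the genes averaged. For lists, leaving out a library, an alternative chosen after seeing the data, gave 6 to 11 progenitor genes higher and 0 to 1 lower, 2 to 7 differentiating genes higher and 0 to 1 lower, and 0 to 2 myelin genes lower; 2 myelin genes were lower with quantile scaling, and the cause was not tested.

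With the replicate block 1144 genes were higher and 340 lower, and no call among the 9 genes changed. Deviations of same-numbered libraries correlated at 0.0347 for number 1 and 0.0502 for number 2, and the labels do not say that a number pairs tumors. Lung tumor 1, with 231156 mouse reads, limits what could be seen of low genes in the lung.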

Other observations

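The genes given here belong to the lineage lists and were picked after their values were seen. Gpr17, a receptor of committed precursors, had 8.05, 11.1 and 0.873 RPKM in brain tumors 1, 2 and 3, against 0 and 0.0356 RPKM in lung tumors 1 and 2. Enpp6, a marker of newly formed oligodendrocytes, had 13.6, 6.81 and 8.06 RPKM in the brain tumors, against 0 and 5.99 RPKM in the lung tumors. Brain tumor 3 was thus the lowest brain library for Gpr17 and not for Enpp6. Neither gene passed the brain against lung test (limma adjusted p = 0.0834 for Gpr17 and 0.161 for Enpp6). Klk6, a protease of mature oligodendrocytes, had 52.5, 14.9 and 10.5 RPKM in brain tumors 1, 2 and 3, while both lung tumors listed it at 0. Omg, a myelin-associated glycoprotein gene that neurons also use, had 57.75, 55.1 and 56.2 RPKM in the brain tumors, against 1.89 and 0.166 RPKM in the lung tumors. Trf, the iron carrier transferrin, had 61.85, 36.5 and 31.45 RPKM in the brain tumors, against 479 and 53.7 RPKM in lung tumors 1 and 2.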
